A study of Mus musculus with 4 samples.

Results

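The genes described here are 10 genes of embryonic red blood cells: the globin genes Hbb-y, Hbb-bh1, Hba-x and Hba-a1, the transcription factor genes Gata1 and Klf1, the haem synthesis gene Alas2, the receptor gene Epor, and the membrane protein genes Rhag and Slc4a1. They were chosen by name, as all probes whose accession maps to one of them, and they are 10 of 18220 named genes and 10 of 13581 genes tested. Their 11 probes were measured on 4 Agilent 1-colour arrays, each hybridised with Cy3-labelled RNA of 1 sample. The tissue was the rear portion of mouse embryos, taken at E9.5. There were 2 genotypes with 2 RNA samples each. The Jmjd3-/- embryos carried the knockout allele of Jmjd3 (now named Kdm6b) on both chromosomes, the wild-type embryos did not carry it, and both came from intercrosses of Jmjd3+/- mice. The labels used here name no Cre line, treatment or strain. The Jmjd3-/- samples are numbered 1 and 9 and the wild-type samples 3 and 4, as in their labels. Nothing states how many embryos went into a sample, so each p-value rests on sample-to-sample spread, which may be technical in part. The Kdm6b enzyme takes repressive methyl groups off histone H3.

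The first red cells of the mouse form in the blood islands of the yolk sac and circulate through the embryo as large nucleated cells. These primitive erythroid cells make the embryonic globins, zeta from the alpha cluster and epsilon-y and beta-h1 from the beta cluster, and already use the adult alpha genes. Gata1 binds GATA sequences and Klf1 binds CACCC sequences in the globin genes and in many other erythroid genes. The RNA came from whole tissue, so fewer red cells and less RNA per red cell cannot be told apart in any value below.

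RefSeq promoter windows (build GRCm38.p6) were at hand for 8 of the 10 genes, each from 250 bases before to 50 bases after the start of the gene. Shown are the windows of 5 genes whose Jmjd3-/- and wild-type arrays did not overlap, and of Klf1, the 1 gene with a positive difference. They lie at chr7:103853158-103853457 on the minus strand (Hbb-y), chr11:32276350-32276649 (Hba-x), chr11:32283422-32283721 (Hba-a1), chrX:150547167-150547466 (Alas2), chr17:40810899-40811198 (Rhag) and chr8:84901732-84902031 (Klf1), the last 5 on the plus strand. Capitals mark every match, on either strand, to a GATA sequence (AGATAA or TGATAA), to CACCC or to CCAAT.
Hbb-y: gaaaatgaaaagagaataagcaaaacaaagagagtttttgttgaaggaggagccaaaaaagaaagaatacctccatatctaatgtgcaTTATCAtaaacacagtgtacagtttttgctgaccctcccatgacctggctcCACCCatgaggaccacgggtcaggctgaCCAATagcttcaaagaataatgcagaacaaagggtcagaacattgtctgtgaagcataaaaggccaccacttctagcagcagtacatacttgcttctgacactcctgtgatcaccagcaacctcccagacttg
Hba-x: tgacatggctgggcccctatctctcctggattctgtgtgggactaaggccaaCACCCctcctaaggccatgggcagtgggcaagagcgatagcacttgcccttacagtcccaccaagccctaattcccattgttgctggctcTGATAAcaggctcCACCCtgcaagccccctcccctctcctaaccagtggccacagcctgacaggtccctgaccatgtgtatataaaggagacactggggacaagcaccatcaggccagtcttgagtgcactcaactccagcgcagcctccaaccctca
Hba-a1: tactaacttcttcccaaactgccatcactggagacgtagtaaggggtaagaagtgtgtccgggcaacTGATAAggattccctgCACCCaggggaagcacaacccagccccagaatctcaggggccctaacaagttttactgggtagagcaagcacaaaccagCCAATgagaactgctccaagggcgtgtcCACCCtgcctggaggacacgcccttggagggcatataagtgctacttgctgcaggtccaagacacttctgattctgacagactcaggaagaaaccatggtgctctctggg
Alas2: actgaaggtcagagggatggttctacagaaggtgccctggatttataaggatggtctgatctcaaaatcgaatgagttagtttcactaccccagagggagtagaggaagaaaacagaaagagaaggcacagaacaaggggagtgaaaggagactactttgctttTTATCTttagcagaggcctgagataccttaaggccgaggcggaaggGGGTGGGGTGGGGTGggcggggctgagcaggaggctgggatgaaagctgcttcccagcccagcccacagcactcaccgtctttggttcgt
Rhag: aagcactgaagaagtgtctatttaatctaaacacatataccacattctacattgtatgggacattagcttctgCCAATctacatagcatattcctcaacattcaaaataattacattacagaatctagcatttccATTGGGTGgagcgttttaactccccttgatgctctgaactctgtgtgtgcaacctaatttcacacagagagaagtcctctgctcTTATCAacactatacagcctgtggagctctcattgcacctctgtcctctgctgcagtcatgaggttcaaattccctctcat
Klf1: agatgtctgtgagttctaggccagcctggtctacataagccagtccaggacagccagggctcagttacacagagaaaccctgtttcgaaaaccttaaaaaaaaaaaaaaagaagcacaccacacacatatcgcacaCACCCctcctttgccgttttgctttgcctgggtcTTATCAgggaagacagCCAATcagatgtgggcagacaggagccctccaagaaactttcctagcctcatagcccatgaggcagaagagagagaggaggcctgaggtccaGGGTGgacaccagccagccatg

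A GATA sequence as spelled here was in 7 of the 8 windows, and in 18.6% of all 32851 promoter windows of that length. CACCC was in 8 of 8, against 57.5% of all windows, and CCAAT in 4 of 8, against 37.4%. The Gata1 window held CACCC and no GATA match. In the Alas2 window the 3 CACCC matches, all on the minus strand, stand end to end, and in the Rhag window a CCAAT and a CACCC match overlap. These matches are letters in a window and were not set against any binding data.

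Between 24631 and 25947 of 41174 probes were well above background on an array, 59.8% to 63.0%, and 0 spots were saturated. All 10 genes were well above background on all 4 arrays. Kdm6b had a normalised log2 signal of 0.35 and 0.11 in Jmjd3-/- samples 1 and 9, against 2.15 and 2.23 in wild-type samples 3 and 4. Of 13 genes listed for the posterior embryo, 13 were tested. Of 10 listed for the head, 6 were too dim to test and 2 were tested, and the tissue their signal came from was not tested. Lhx2 was at −2.09 and −0.08 in Jmjd3-/- samples 1 and 9, against 1.35 and 1.61 in wild-type samples 3 and 4. Emx2 was at −4.50 and −2.57 in Jmjd3-/-, against −2.85 and −2.35 in wild-type. The other Emx2 probe differed by 0.05, against −0.93 for this one. Xist was well above background on all arrays (2.92 and 1.82 in Jmjd3-/-, 2.10 and 2.18 in wild-type), and the Y-linked genes Ddx3y, Kdm5d, Eif2s3y and Uty on 0 of 4 arrays. A normalised log2 signal is the log2 of the software's processed signal less that array's 75th percentile. A log2 difference is the Jmjd3-/- mean minus the wild-type mean, with the moderated standard error (SE) of limma and n = 2 per genotype. An adjusted p is Benjamini-Hochberg over 13581 genes, with a threshold of 0.05.

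In the Jmjd3-/- samples, 9 of the 10 genes had a lower mean signal than in the wild-type samples, and Klf1 had a higher one; over all genes tested, 53.1% had a negative difference. The embryonic globin gene Hbb-y had the largest negative difference of the 10, a Jmjd3-/- mean at 54.4% of the wild-type mean, and Gata1 the smallest, at 85.0%. The median over the 10 genes was −0.50, and over all genes −0.01. None of the 10 passed the threshold: 0 of 10 in limma, with adjusted p from 0.358 to 0.769, where 0.0368% of all genes passed (5 of 13581). At an unadjusted p under 0.05, 2 of the 10 were lower (Rhag and Hba-a1) and 0 higher, against 5.93% lower and 5.15% higher among all genes. Both Jmjd3-/- arrays lay below both wild-type arrays for 6 of the 10 genes, against 23.7% of all genes.

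The samples within a genotype also stood apart. Jmjd3-/- sample 1 was the lowest of the 4 arrays for 9 of the 10 genes, and wild-type sample 4 the highest for 9. Jmjd3-/- sample 9 lay below wild-type sample 3 for 6 genes and above it for 4, and the median difference of that pair was −0.02. For Jmjd3-/- sample 1 the median difference was −0.49 from wild-type sample 3 and −1.01 from wild-type sample 4, and for Jmjd3-/- sample 9 it was −0.46 from wild-type sample 4. The wild-type samples themselves differed: sample 4 was above sample 3 for all 10 genes (49.0% of all genes), by a median of 0.48. Within Jmjd3-/-, sample 9 was above sample 1 for 9 genes (59.6% of all genes), by a median of 0.46. The difference between genotypes was larger than the gap between the wild-type arrays for 6 genes and smaller for 4. No share over all genes was worked out for this count or for the lowest and highest arrays. These counts only describe the 10 genes. Without Jmjd3-/- sample 1 the median over the 10 genes was −0.23, without sample 9 −0.75, without wild-type sample 3 −0.76 and without wild-type sample 4 −0.27.

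**Figure D1:**
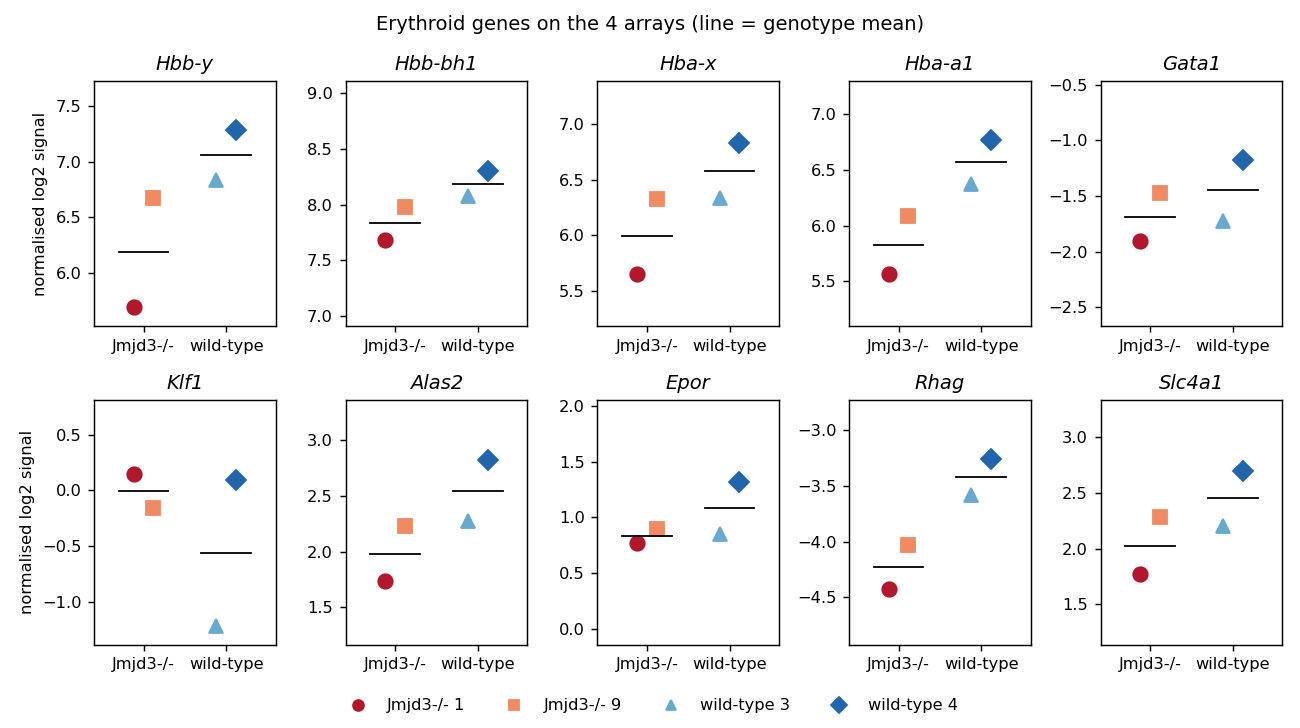
Normalised log2 signal of each of the 10 genes (vertical axis, of equal height in every panel) in the Jmjd3-/- samples and the wild-type samples, with 1 point per array and a line at the mean of each genotype. In 9 of the 10 panels Jmjd3-/- sample 1 is the lowest point, and in all panels wild-type sample 4 is above wild-type sample 3.

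Hbb-y encodes the epsilon-y chain, a beta-like globin of primitive red cells. Its signal was 5.70 and 6.67 in Jmjd3-/- samples 1 and 9, against 6.84 and 7.29 in wild-type samples 3 and 4. All 4 values are apart, with Jmjd3-/- sample 1 far below the rest and sample 9 close to wild-type sample 3. The difference was −0.88 (SE 0.40, adjusted p = 0.518), with a gap of 0.45 between the wild-type arrays. Without Jmjd3-/- sample 1 it was −0.39, and without sample 9 it was −1.37.

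Hbb-bh1 encodes the beta-h1 chain, the other embryonic beta-like globin. Its brighter probe, A_52_P305876, gave 7.69 and 7.98 in Jmjd3-/- samples 1 and 9, against 8.08 and 8.30 in wild-type samples 3 and 4. The other probe, A_51_P179672, gave 7.49 and 7.84 in Jmjd3-/-, against 7.90 and 8.18 in wild-type. Both probes put the arrays in the same order, with no overlap of the genotypes. The brighter probe differed by −0.36 (SE 0.15, adjusted p = 0.504), and the other by −0.38 (SE 0.18, adjusted p = 0.596 over all probes tested). Over the 4 arrays Hbb-bh1 spanned 0.62 log2 units and Hbb-y 1.59, so the signals of these embryonic beta-like genes did not change by equal steps from array to array.

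Hba-x encodes the zeta chain, the embryonic alpha-like globin. Its signal was 5.65 and 6.33 in Jmjd3-/- samples 1 and 9, against 6.33 and 6.83 in wild-type samples 3 and 4. Jmjd3-/- sample 9 and wild-type sample 3 were level to the second decimal, so the genotypes were barely apart. The difference was −0.59 (SE 0.31, adjusted p = 0.565), with a gap of 0.50 between the wild-type arrays. Hba-a1 encodes the adult alpha chain, and its coding sequence is nearly identical to that of Hba-a2, so the probe may read both. Its signal was 5.57 and 6.08 in Jmjd3-/- samples 1 and 9, against 6.37 and 6.77 in wild-type samples 3 and 4. Here Jmjd3-/- sample 9 was clearly below wild-type sample 3. The difference was −0.74 (SE 0.25, unadjusted p = 0.0424 by limma, adjusted p = 0.432), larger than the wild-type gap of 0.40.

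The spots of the 4 globin genes were bright enough on all 4 arrays for the scanner software to take them from its low-gain scan, which supplied 2.11% to 2.28% of all spots of an array. The processed signals of Hbb-bh1 were 124145 and 146110 in Jmjd3-/- samples 1 and 9, against 161405 and 198156 in wild-type samples 3 and 4. None of these spots was marked as saturated or as an outlier. The part of the low-gain scan in the differences was not tested.

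**Figure D2:**
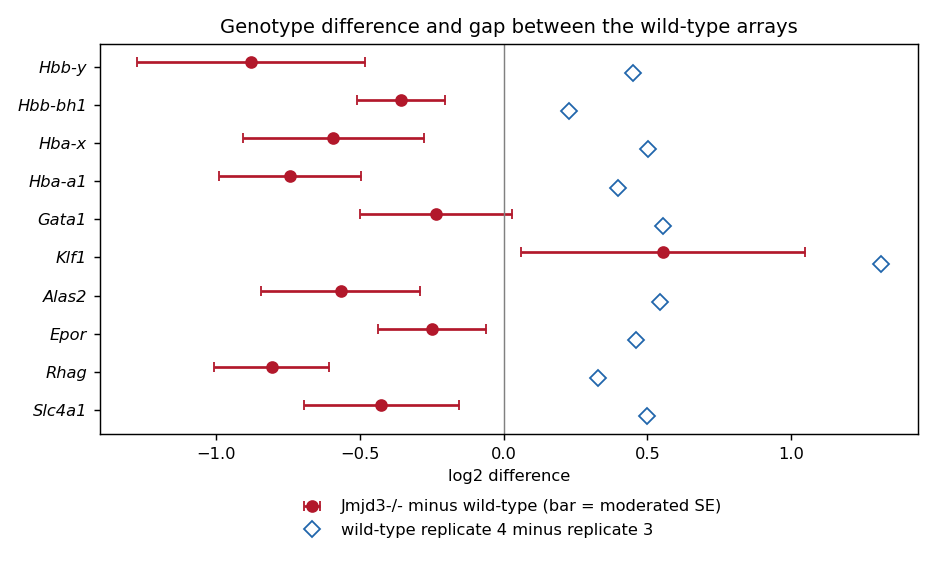
Log2 difference of each gene between Jmjd3-/- and wild-type (filled points, with the moderated SE) and between wild-type samples 4 and 3 (open points). The gap between the wild-type samples is positive for all 10 genes, and it is larger than the genotype difference for Gata1, Klf1, Epor and Slc4a1.

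Gata1 encodes the zinc finger factor that erythroid cells need to mature. Its signal was −1.90 and −1.47 in Jmjd3-/- samples 1 and 9, against −1.73 and −1.17 in wild-type samples 3 and 4. The genotypes overlapped, since Jmjd3-/- sample 9 was above wild-type sample 3. The difference was −0.23 (SE 0.26, adjusted p = 0.769), less than the wild-type gap of 0.55, and without wild-type sample 4 it was 0.043. The Gata1 probe was printed on 10 spots per array, and the SD of log2 signal over these spots was 0.05 to 0.06. This SD covers spots within an array, not RNA preparation, labelling or hybridisation.

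Klf1 encodes the erythroid Krüppel-like factor. Its signal was 0.15 and −0.16 in Jmjd3-/- samples 1 and 9, against −1.22 and 0.10 in wild-type samples 3 and 4. Wild-type sample 3 stood far below the other 3 arrays, which lay close together. The difference was 0.55 (SE 0.49, adjusted p = 0.705), with a wild-type gap of 1.31. Without wild-type sample 3 it was −0.10, and without wild-type sample 4 it was 1.21. The probe had 1 spot per array, and the spot of wild-type sample 3 was not marked as an outlier, with a processed signal of 257 against 670 in wild-type sample 4.

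Alas2 encodes the enzyme of the first step of haem synthesis in erythroid cells. Its signal was 1.74 and 2.23 in Jmjd3-/- samples 1 and 9, against 2.28 and 2.82 in wild-type samples 3 and 4. The genotypes did not overlap, but Jmjd3-/- sample 9 and wild-type sample 3 were nearly level. The difference was −0.57 (SE 0.28, adjusted p = 0.542), close to the wild-type gap of 0.54. Epor encodes the erythropoietin receptor, and its signal was 0.77 and 0.90 in Jmjd3-/- samples 1 and 9, against 0.85 and 1.31 in wild-type samples 3 and 4. Of these, 3 arrays were close together and wild-type sample 4 was higher. The difference was −0.25 (SE 0.19, adjusted p = 0.658), and without wild-type sample 4 it was −0.02.

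Rhag encodes the Rh-associated glycoprotein of the red cell membrane. Its signal was −4.43 and −4.03 in Jmjd3-/- samples 1 and 9, against −3.58 and −3.26 in wild-type samples 3 and 4. Both Jmjd3-/- arrays were clearly below both wild-type arrays. The difference was −0.81 (SE 0.20, unadjusted p = 0.0177 by limma, adjusted p = 0.358). It was the smallest p of the 10, at rank 671 among all genes. Rhag was also a dim gene, with processed signals of 28.1 and 35.5 in Jmjd3-/-, against 49.95 and 65.7 in wild-type, and with another background correction (normexp) the difference was −0.39. Slc4a1 encodes band 3, the anion exchanger of the red cell membrane. Its signal was 1.77 and 2.29 in Jmjd3-/- samples 1 and 9, against 2.20 and 2.70 in wild-type samples 3 and 4. The genotypes overlapped, and the difference of −0.42 (SE 0.27, adjusted p = 0.616) was less than the wild-type gap of 0.50. Without Jmjd3-/- sample 1 it was −0.17.

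**Figure D3:**
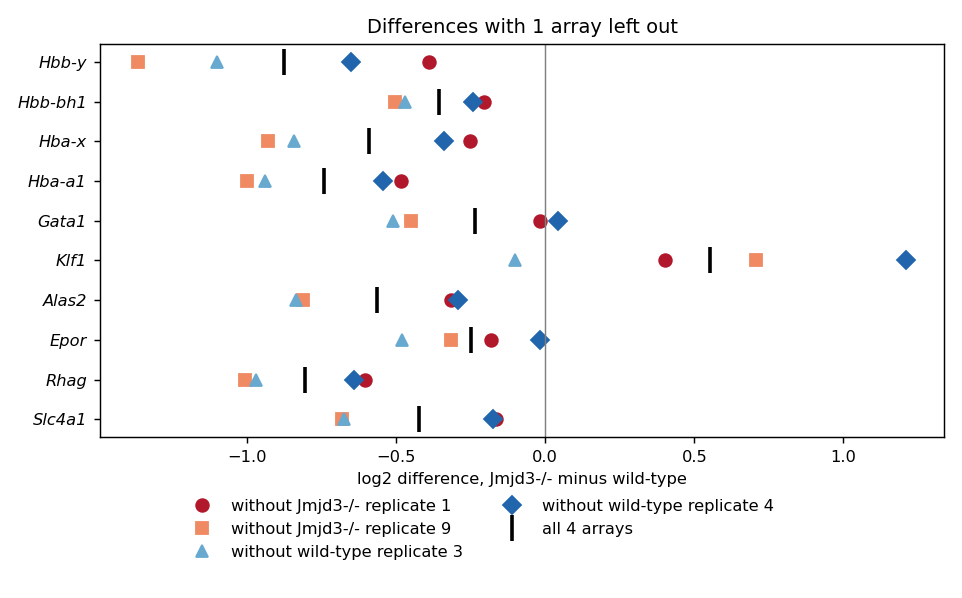
Log2 difference of each gene between Jmjd3-/- and wild-type with all 4 arrays (black bars) and with 1 array left out (coloured points). For the globin genes, Alas2, Rhag and Slc4a1 all points stay below 0, while Gata1 is at 0.043 without wild-type sample 4 and Klf1 at −0.10 without wild-type sample 3.

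Other globin genes had probes for 3 of the 9 genes listed, and Ahsp, an alpha globin chaperone gene listed with them, had no probe named here. The theta-like genes Hbq1a and Hbq1b differed by −0.55 (SE 0.29) and −0.48 (SE 0.23), with adjusted p of 0.563 and 0.530. Hbb-bt, an adult beta globin gene of definitive red cells, had 4 probes that did not move together, and its sequence is close to that of its neighbour Hbb-bs, so the reading gene is uncertain. Probe A_51_P374476, the brightest, gave 2.34 and 1.82 in Jmjd3-/- samples 1 and 9, against 2.32 and 2.51 in wild-type samples 3 and 4, a difference of −0.33 (SE 0.22). Here Jmjd3-/- sample 9, and not sample 1, was the lowest array, unlike the embryonic globins.

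Probe A_52_P213909 of Hbb-bt gave 1.58 and 1.74 in Jmjd3-/- samples 1 and 9, against 2.66 and 2.72 in wild-type samples 3 and 4. The samples of each genotype were close together on this probe and the genotypes far apart. Its difference was −1.03 (SE 0.10, adjusted p = 0.204 over all probes tested). The remaining probes, A_51_P374468 and A_52_P260346, differed by −0.14 (SE 0.31) and −0.36 (SE 0.17). Probe A_51_P374468 gave 0.33 and −0.48 in Jmjd3-/-, against −0.02 and 0.15 in wild-type, with Jmjd3-/- sample 1 the highest of the 4 arrays.

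**Figure D4:**
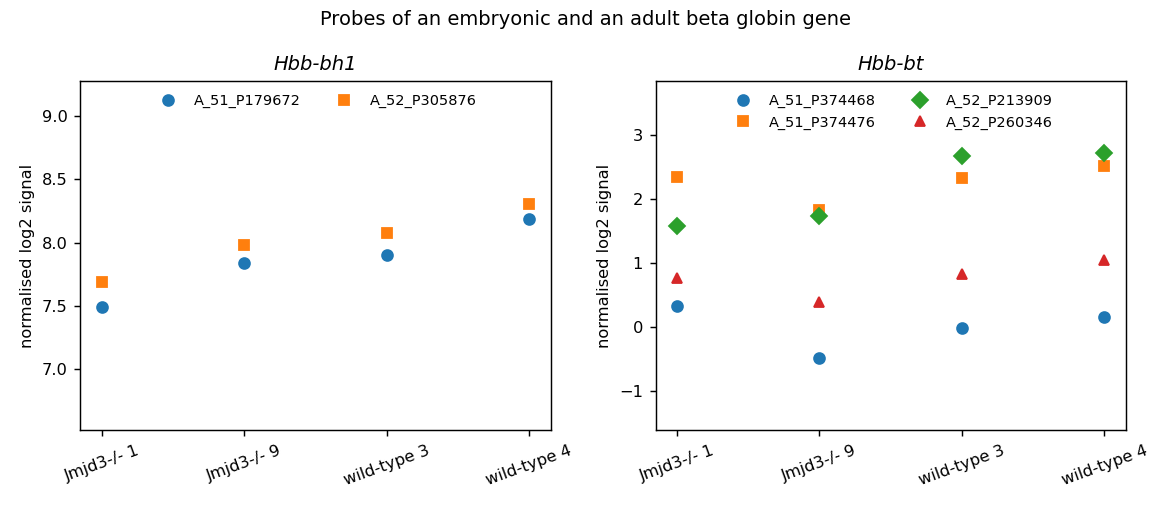
Normalised log2 signal of the 2 probes of Hbb-bh1 (left) and the 4 probes of Hbb-bt (right) on the Jmjd3-/- and wild-type arrays. The Hbb-bh1 probes keep the same order of arrays, whereas on Hbb-bt only probe A_52_P213909 has both Jmjd3-/- arrays far below both wild-type arrays.

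Genes that act with the 10 were taken as lists, and 0 genes of any list passed the threshold over all genes in limma. Of 14 haem synthesis and transport genes 11 had a negative difference (53.1% of all genes), with a median of −0.10. At an unadjusted p under 0.05 there were 2 lower and 0 higher (5.93% and 5.15% of all genes). Abcb10, a mitochondrial transporter that erythroid cells need for haem synthesis, had −1.71 and −1.47 in Jmjd3-/- samples 1 and 9, against −0.76 and −0.64 in wild-type samples 3 and 4. Its difference was −0.89 (SE 0.12, adjusted p = 0.233), and unlike the 10 genes its wild-type arrays were close. The haem exporter gene Flvcr1 differed by −0.24 (SE 0.08), and Uros, which encodes an enzyme of the pathway, by −0.23 (SE 0.09).

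Iron genes had a median of 0.02 over 12 tested, with 5 negative and 7 positive and 0 at an unadjusted p under 0.05 in either direction. Trf, which encodes the iron carrier of plasma, differed by −0.35 (SE 0.20), Aco1 and Ireb2, which encode iron-sensing RNA-binding proteins, by 0.16 (SE 0.10) and 0.09 (SE 0.08), and Hfe by 0.18 (SE 0.17). The 3 probes of Ireb2 ranged from −0.08 to 0.09. Of 23 red cell membrane and skeleton genes 18 were negative (53.1% of all genes), with a median of −0.26. At an unadjusted p under 0.05, 2 were lower and 0 higher (5.93% and 5.15% of all genes). The other 5 were positive, by up to 0.40. The summed level of the list, on the normalised scale before the log2, was not lower in Jmjd3-/-. It was 90.9 and 114.9 in Jmjd3-/- samples 1 and 9, against 88.4 and 84.9 in wild-type samples 3 and 4. Bright genes weigh most in such a sum, and their part in this one was not tested. Gypc, a glycophorin gene, had 0.89 and 1.42 in Jmjd3-/- samples 1 and 9, against 1.93 and 1.97 in wild-type samples 3 and 4, a difference of −0.79 (SE 0.20). The blood group gene Rhd differed by −0.83 (SE 0.32), the actin-capping gene Tmod1 by −0.49 (SE 0.17) and Cd44 by −0.35 (SE 0.13). The dimmer Cd44 probe differed by −0.15.

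Among 20 tested genes for transcription factors and cofactors of erythroid cells, 15 were negative (53.1% of all genes), with a median of −0.16. At an unadjusted p under 0.05, 2 were lower and 0 higher (5.93% and 5.15% of all genes). Bcl11a, a repressor gene known for the switch from embryonic and fetal to adult globins, had −3.51 and −3.50 in Jmjd3-/- samples 1 and 9, against −1.82 and −1.94 in wild-type samples 3 and 4. The genotypes were far apart and the samples within each nearly level, a difference of −1.63 (SE 0.08, adjusted p = 0.0969), at rank 8 of all genes by p. Its other probe differed by −2.004 (SE 0.21). Bcl11a, like Kdm6b, is on chromosome 11, and so are Hba-x, Hba-a1, Slc4a1, Hbq1a and Hbq1b among the genes described above. The part of this shared chromosome in their values was not tested. Bcl11a is also made outside blood, in neurons, and the tissue its signal came from was not tested. The corepressor gene Cbfa2t3 differed by −0.35 (SE 0.10), the Gata1 cofactor gene Zfpm1 by −0.22 (SE 0.08) and the transcription factor gene Lyl1 by −0.30 (SE 0.12).

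Erythropoietin and Kit signalling genes had a median of 0.07 over 14 tested, with 6 negative and 8 positive. At an unadjusted p under 0.05, 1 was lower and 2 were higher (5.93% and 5.15% of all genes). Erfe, the erythroferrone gene that erythropoietin induces, had −3.37 and −3.35 in Jmjd3-/- samples 1 and 9, against −3.78 and −3.94 in wild-type samples 3 and 4, a difference of 0.50 (SE 0.09, adjusted p = 0.329). The kinase gene Pim1, a target of cytokine signalling, differed by 0.67 (SE 0.13, adjusted p = 0.329). Both were above wild-type in both Jmjd3-/- samples, opposite to Epor's mean. Lyn, a kinase gene, differed by −0.21 (SE 0.07), and Ptpn6, a phosphatase gene of this pathway, by 0.25 (SE 0.12). The dimmer Ptpn6 probe differed by 0.10. Of 21 genes for red cell enzymes and maturation 14 were negative (53.1% of all genes), with a median of −0.11. At an unadjusted p under 0.05, 2 were lower and 0 higher (5.93% and 5.15% of all genes). Hemgn, an erythroid nuclear protein gene, differed by −0.55 (SE 0.19), Blvrb, a reductase gene of haem breakdown, by −0.31 (SE 0.14) and Smim1, a blood group gene, by −0.42 (SE 0.22). Fam210b differed by −0.27 (SE 0.08), with 0.26 for its dimmer probe.

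Genes of other blood cells and of vessels were also mostly negative, as were 53.1% of all genes. Of 20 listed genes of macrophages, platelets and other blood cells 12 were tested and 11 were negative, with a median of −0.56; 7 further genes were too dim to test, among them the macrophage and leukocyte markers Aif1, C1qa and Ptprc. Of the 12 tested, 4 were lower and 0 higher at an unadjusted p under 0.05 (5.93% and 5.15% of all genes). For 10 both Jmjd3-/- samples lay below both wild-type samples (23.7% of all genes). Tyrobp is in each of these counts and among the 11 negative genes. It was well above background on 2 wild-type and 0 Jmjd3-/- arrays. The filter thus passed it through wild-type only, and its direction adds nothing to the counts. The summed level of the 12, in units of the 75th percentile of each array, was 12.9 and 16.6 in Jmjd3-/- samples 1 and 9, against 19.6 and 23.9 in wild-type samples 3 and 4. Cd34 made up 87.9% and 89.2% of this sum in Jmjd3-/- samples 1 and 9, against 86.8% and 81.7% in wild-type samples 3 and 4. The other 11 genes summed to 1.55 and 1.80 in Jmjd3-/-, against 2.59 and 4.36 in wild-type. Gene by gene, Jmjd3-/- sample 9 was above sample 1 for 7 of the 12. The platelet genes Pf4 and Gp9 differed by −1.77 (SE 0.43) and −1.15 (SE 0.29), Cd34, a gene of progenitors and vessels, by −0.50 (SE 0.17), and Tyrobp, at −5.60 and −6.50 in Jmjd3-/- samples 1 and 9, against −4.72 and −4.54 in wild-type samples 3 and 4, was at least 1.75-fold lower in Jmjd3-/- (adjusted p = 0.355 for its fitted difference of −1.42). For Tyrobp the dim genotype was set at the lowest signal well above background or at its own signal, whichever was higher.

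Of 18 tested endothelial genes 15 were negative, with a median of −0.16, and their summed level was 48.9 and 48.4 in Jmjd3-/-, against 54.9 and 55.6 in wild-type. Of these genes 6 were lower and 0 higher at an unadjusted p under 0.05 (5.93% and 5.15% of all genes), and for 9 both Jmjd3-/- samples lay below both wild-type samples (23.7% of all genes). Here the summed levels within a genotype were close. Clec14a, Emcn, Cldn5 and Ramp2 differed by −0.59 (SE 0.12), −0.44 (SE 0.10), −0.56 (SE 0.15) and −0.24 (SE 0.07). Genes of the visceral endoderm and liver bud, which lie next to the blood-forming sites, were of both signs, with 7 of 13 negative and a median of −0.08. Afp differed by −1.26 (SE 0.23), Fgb by −2.08 (SE 0.40) and Apoa2 by −1.71 (SE 0.35), and Lrp2 by 1.13 (SE 0.24). Of the 13, 4 were lower and 3 higher at an unadjusted p under 0.05 (5.93% and 5.15% of all genes). Posterior embryo genes had a median of 0.79, and 11 of 13 were positive. At an unadjusted p under 0.05, 8 were higher and 1 lower (5.15% and 5.93% of all genes). For 9 both Jmjd3-/- samples lay above both wild-type samples (23.0% of all genes). The genes named by the rule were Cdx1 at 0.79 (SE 0.11), Cdx2 at 1.45 (SE 0.23), Wnt3a at 1.42 (SE 0.25) and Hoxd10 at −0.65 (SE 0.07). The part of these cell types in the erythroid values was not tested.

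**Figure D5:**
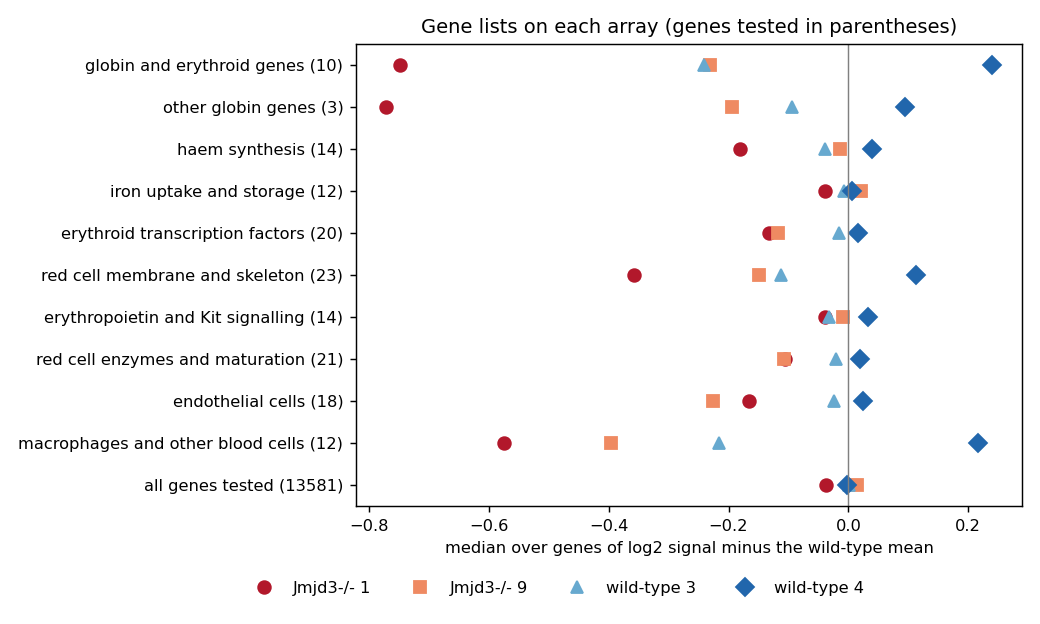
Median over the genes of each list of the log2 signal minus the wild-type mean (horizontal axis), with 1 point per array and the number of genes tested in parentheses. The globin and erythroid genes lie at −0.75 in Jmjd3-/- sample 1 and at 0.24 in wild-type sample 4, while iron and signalling genes and all genes tested stay within 0.05 of 0 on every array.

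The genes whose centred profile over the 4 arrays lay nearest to the mean profile of the 10, by Euclidean distance in log2 units over 4 arrays, were Rab3a (0.07), Flt3l (0.08), Kcnn4 (0.09), Lrrc29 (0.09) and Nmnat3 (0.09). The mean profile of the 10 was −0.42 and −0.01 in Jmjd3-/- samples 1 and 9, against −0.05 and 0.48 in wild-type samples 3 and 4. With 4 points per gene and 13581 genes, closeness of this kind describes these arrays only. Rab3a encodes a small GTPase of secretory vesicles and Kcnn4 a potassium channel also known from red cells. Flt3l had a second probe with a difference of 0.06, against −0.37 for the brighter one.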

How the data were processed

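Agilent Feature Extraction 10.7.3.1, named in the submitters' processing notes and per the file headers, wrote a processed intensity for each spot, corrected for background and spatial trends and not normalised between arrays. The authors' deposited table of log2 values has no stated scale; set against the scanner files, its values equal the normalised log2 signal described here after subtraction of the wild-type mean (r from 0.995 to 0.997 across probes, 99.9% within 0.01), which settles scale, centring and direction. Its column medians were −0.02 and 0.05 for Jmjd3-/- samples 1 and 9 and 0.02 and −0.02 for wild-type samples 3 and 4. All 4 arrays were on 1 slide, so slide could not be a block.

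Of 45018 spots, 1639 control spots were left out. Spots of a probe were averaged as log2 and the 75th percentile was subtracted. The files hold no gene names: RefSeq (GRCm38.p6) named 26690 of 41174 probes by accession and 23 by synonym, and the brightest probe stood for a gene. The headers name another build (mm9), so coordinates were given for promoter windows only. The test took genes that 1 or both genotypes showed well above background on each of their arrays. The comparison used limma 3.58.1 under R 4.3.3 (lmFit, eBayes, 1.79 prior degrees of freedom). The same code was also run on simulated data, with means and spread taken from this fit. The planned normexp input, the mean spot signal, was replaced by the median signal, with an offset of 50, since the files hold no mean. The 10 genes and the lists were chosen with earlier results of these data known. Genes named beyond the 10 are Kdm6b, up to 4 of each list by p, Xist and the Y-linked genes, and the 5 nearest profiles; 1 gene that this rule names is not reported here.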

Additional observations from a re-analysis of the deposited data

How the results depend on the processing

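Of 120 differences of the 10 genes under 12 alternatives, 118 kept their sign and 2 reversed. These were Gata1 (0.043 without wild-type sample 4, with a range of −0.51 to 0.043 over arrays left out) and Klf1 (−0.10 without wild-type sample 3, with a range of −0.10 to 1.21). Several alternatives could hardly move these genes, so the 118 is not a count of separate checks. Alas2 stayed at −0.5655 under both changes of the filter and without outlier spots, and was −0.5656 from the authors' values. Averaging over probes could change only Hbb-bh1, the 1 gene of the 10 with 2 probes. Over arrays left out, the count of the 10 genes with a negative difference was 8 to 10, of the 11 probes 9 to 11, and the median ranged from −0.76 to −0.23; under the 8 other alternatives the median was −0.51 to −0.40 and the count stayed at 9. In each of the 8 alternatives that kept all arrays, 0 of the 10 passed in limma, with 1 to 3 at an unadjusted p under 0.05. Over all genes, 5 passed; 2 passed with normexp and 0 with quantile normalisation, without the filter on dim probes, or with a filter on all 4 arrays, where 1465, 1621 and 1415 had an unadjusted p under 0.05. Leaving out an array gave 0 to 167, the 167 without Jmjd3-/- sample 9; leaving out any of the others gave 0, with 642 to 1940 at an unadjusted p under 0.05; the cause was not tested. No paired analysis was possible because the genotypes share no sample numbers. The number of arrays limits every value, and Rhag lies near background.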
